A study of Rattus norvegicus with 6 samples.

Results

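The genes described here encode the translocases of mitochondrial protein import, the Tomm genes of the outer membrane and the Timm genes of the inner membrane and the intermembrane space. They were taken by name from a table of gene expression in rat mammary tumors, as every row whose symbol starts with Timm or Tomm followed by a digit. This gave 25 of 32545 rows, under 23 symbols. The family was selected on the FPKM values of Timm17b, which differed widely between the treatment groups, so the difference of Timm17b is given as a description with no test, and nothing is read from its share in any count. By the place of the protein, 8 rows belonged to the outer membrane, 7 to the inner membrane, 9 to the intermembrane space and 1, Tomm34, to the cytosol.

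RNA was sequenced from mammary tumors of female Sprague-Dawley rats, 3 tumors of rats given diallyl trisulfide (DATS), a garlic organosulfur compound, and 3 of rats given the vehicle. All rats had received 50 mg/kg N-methyl-N-nitrosourea (MNU), an alkylating carcinogen, injected intraperitoneally when they were 21 days old. Dosing began 1 week later and was given 5 times a week over 10 weeks, by mouth as 50 mg/kg DATS in corn oil for the DATS group and by gavage as 100 µL of corn oil alone for the vehicle group. The labels do not tie tumors to individual rats, so the tests measure the spread between these tumors, which may be technical in part. Levels are in FPKM, fragments per kilobase of gene scaled for depth, and rest on 13531587 to 16868678 reads per tumor. All 10 luminal epithelium markers were above 0 in every tumor, with summed levels of 2759 to 4463 FPKM in DATS tumors and 2069 to 2669 FPKM in vehicle tumors. These sums did not overlap between the groups on the deposited values, but 2759 FPKM in DATS tumor 1 lay close to 2669 FPKM in vehicle tumor 1. The FPKM totals were 710096 in DATS tumor 1, against 608193 and 566304 in vehicle tumors 1 and 3. After rescaling to equal FPKM totals DATS tumor 1 lay below vehicle tumors 1 and 3, so the luminal sums overlapped. The sums of basal (1257 to 2859 FPKM in DATS tumors, 1084 to 2240 FPKM in vehicle tumors) and fibroblast markers overlapped. The part of cell makeup in the results was not tested. Skeletal muscle markers summed to 25.1 to 30.2 FPKM in DATS tumors and to 1313, 45.6 and 20.1 FPKM in vehicle tumors 1, 2 and 3. In bulk tissue, fewer cells of a type and less RNA per cell cannot be told apart.

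Nearly all mitochondrial proteins are made in the cytosol and imported. The TOM complex of the outer membrane is the common entry gate, with the receptors Tom20, Tom22 and Tom70, the channel Tom40 and the small subunits Tom5, Tom6 and Tom7. Proteins with a cleavable presequence then pass through the TIM23 complex of the inner membrane (Tim23, Tim17, Tim21, Tim50) into the matrix, pulled by a motor in which Tim44 anchors the chaperone mtHsp70. Metabolite carriers are escorted through the intermembrane space by small Tim chaperones, such as the Tim9-Tim10 and Tim8-Tim13 complexes, and inserted by the TIM22 complex. Cells depend on this import for respiration and for replacing mitochondrial proteins.

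Timm17b encodes 1 of the 2 Tim17 paralogs, the membrane subunits of the TIM23 channel. Its level was 5.65, 28.4 and 29.5 FPKM in DATS tumors 1, 2 and 3, against 4.26, 0.783 and 0.532 FPKM in vehicle tumors 1, 2 and 3. DATS tumors 2 and 3 stood far above the other 4, and DATS tumor 1 lay close to vehicle tumor 1. The values rested on 41, 199 and 213 reads in the DATS tumors and on 39, 6 and 4 reads in the vehicle tumors. With exact Poisson intervals at 95%, which cover counting error only, DATS tumor 1 was at 4.05 to 7.66 FPKM and vehicle tumor 1 at 3.03 to 5.83 FPKM, so that the nearest tumors of the groups were not separable at this depth. The mean was 21.2 ± 13.5 FPKM in DATS tumors and 1.86 ± 2.09 FPKM in vehicle tumors (SD, n = 3 each), and the difference of log2(FPKM + 1), taken as DATS minus vehicle throughout, was 2.90 ± 0.73 (SE). That scale understates the difference of rows of low value, and with a pseudocount of 0.1 it was 3.65. It ranged from 2.52 to 3.62 when each tumor was left out in turn.

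**Figure D1:**
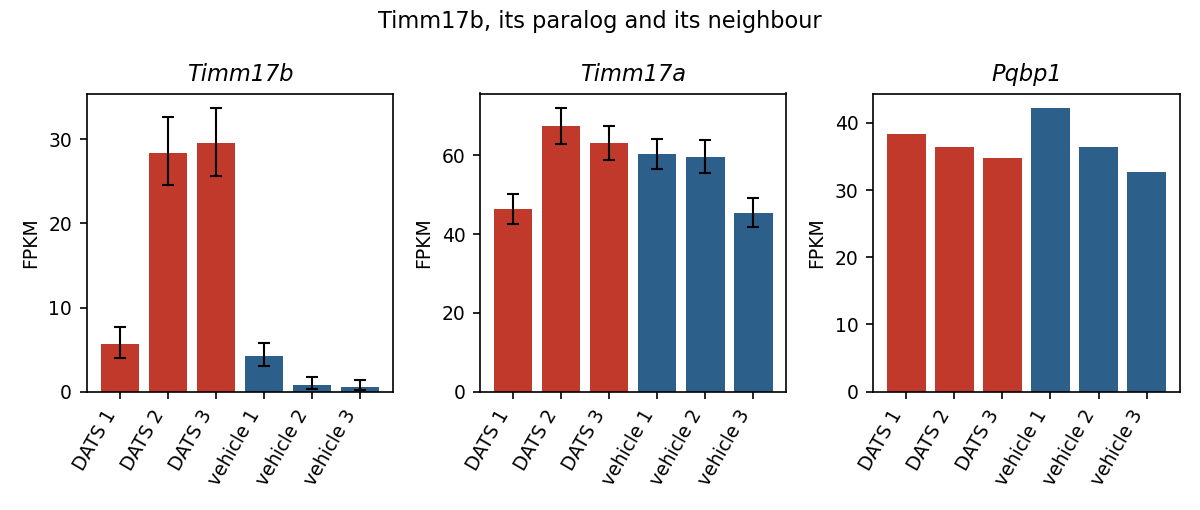
Level in FPKM (vertical axes, from 0) of Timm17b, its paralog Timm17a and its neighbour Pqbp1 in each of the 3 DATS tumors (red) and 3 vehicle tumors (blue); error bars for Timm17b and Timm17a are exact Poisson intervals at 95% for the reads of that tumor. In DATS tumors 2 and 3 Timm17b reached 28.4 and 29.5 FPKM, while the other 4 tumors had 5.65 FPKM or less, whereas Pqbp1 was between 32.7 and 42.3 FPKM in all 6.

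Timm17a, the other Tim17 paralog, was at 46.3, 67.4 and 63.1 FPKM in DATS tumors, against 60.3, 59.7 and 45.5 FPKM in vehicle tumors. The groups overlapped, and the log2 difference of 0.087 had a 95% interval of -0.39 to 0.57. Timm17b therefore made up 10.9%, 29.7% and 31.9% of the summed Tim17 paralog FPKM in DATS tumors 1, 2 and 3, against 6.60%, 1.30% and 1.16% in vehicle tumors 1, 2 and 3. Timm17a remained the more abundant paralog per length in each of the 6 tumors. The implied lengths were 904 bp for Timm17a and 519 bp for Timm17b, and which parts of the transcripts they cover was not checked. Reads that match both paralogs may have been divided by the counting, whose method is not known, and RefSeq lists 2 pseudogenes named after Timm17a and 0 named after Timm17b.

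The neighbours of Timm17b on the X chromosome were compared because its values varied so widely between tumors. In RefSeq (assembly GRCr8) the next gene upstream of Timm17b is Pqbp1, which encodes a polyglutamine-binding protein of the nucleus and is read from the opposite strand, head to head with Timm17b. Pqbp1 was at 38.3, 36.4 and 34.7 FPKM in DATS tumors, against 42.3, 36.4 and 32.7 FPKM in vehicle tumors, a log2 difference of -0.017 ± 0.14 (SE; limma adjusted p = 0.989). Its groups overlapped, and DATS tumors 2 and 3 did not stand apart. Slc35a2, a UDP-galactose transporter further on that side, was at 13.0, 12.1 and 16.3 FPKM in DATS tumors, against 12.2, 15.0 and 12.6 FPKM in vehicle tumors. Pim2, a serine/threonine kinase, was at 2.54, 3.48 and 4.37 FPKM in DATS tumors, against 2.06, 3.78 and 2.11 FPKM in vehicle tumors. Both overlapped between the groups. On the other side Rps19-ps7, a pseudogene, was not analysed here, and Pcsk1n and Eras were listed at 0 in every tumor.

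The promoters of 4 members are shown because the results turn on these genes: Timm17b and its paralog Timm17a, and Tomm7 and Timm10, the members other than Timm17b with an unadjusted p under 0.05. Each window runs from 250 bases before to 50 bases after the RefSeq start (build GRCr8), is written 5′ to 3′ and was matched by symbol. Capitals mark letters of 3 motifs searched on both strands: the NRF1 palindrome, CCGGAAG, bound by ETS factors such as GABP, and CCAAT, bound by NF-Y. The NRF1 palindrome is the longer run of capitals in the window of Tomm7. NRF1 and GABP are known as activators of nuclear genes of mitochondrial proteins.
Timm17b (chrX:17275291-17275590, minus strand): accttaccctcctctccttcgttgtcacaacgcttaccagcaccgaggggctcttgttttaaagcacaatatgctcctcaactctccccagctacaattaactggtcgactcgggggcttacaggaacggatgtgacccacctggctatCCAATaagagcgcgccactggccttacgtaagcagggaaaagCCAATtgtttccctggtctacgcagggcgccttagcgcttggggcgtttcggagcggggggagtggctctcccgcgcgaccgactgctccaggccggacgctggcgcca
Timm17a (chr13:49294355-49294654, minus strand): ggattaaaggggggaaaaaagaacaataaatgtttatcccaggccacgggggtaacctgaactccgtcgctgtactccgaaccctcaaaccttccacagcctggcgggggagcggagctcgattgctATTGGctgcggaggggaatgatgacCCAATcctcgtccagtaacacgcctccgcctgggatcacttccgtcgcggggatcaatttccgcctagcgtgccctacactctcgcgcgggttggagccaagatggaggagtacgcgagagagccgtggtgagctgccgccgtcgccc
Tomm7 (chr4:12197253-12197552, plus strand): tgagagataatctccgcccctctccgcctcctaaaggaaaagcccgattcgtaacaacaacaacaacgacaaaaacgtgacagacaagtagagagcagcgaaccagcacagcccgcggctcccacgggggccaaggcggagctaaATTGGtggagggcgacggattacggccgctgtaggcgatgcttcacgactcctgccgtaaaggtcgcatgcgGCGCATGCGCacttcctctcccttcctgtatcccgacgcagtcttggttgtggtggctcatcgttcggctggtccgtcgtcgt
Timm10 (chr3:90314889-90315188, plus strand): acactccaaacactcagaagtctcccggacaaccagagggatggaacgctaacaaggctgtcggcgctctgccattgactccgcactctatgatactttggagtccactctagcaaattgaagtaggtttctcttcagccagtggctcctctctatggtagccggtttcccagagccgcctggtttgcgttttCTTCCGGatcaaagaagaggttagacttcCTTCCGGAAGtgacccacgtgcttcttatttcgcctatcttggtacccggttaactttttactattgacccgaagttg
The windows of Timm17b and Timm17a each held 2 CCAAT matches and none of the other motifs. The gene models of Timm17b and Pqbp1 lie head to head with 20 bases between them. Most of the Timm17b window before its start, with both of its matches, therefore lies within Pqbp1 and is not particular to Timm17b. That of Tomm7 held 1 NRF1 and 1 CCAAT match, and that of Timm10 held 3 ETS matches, of which 2 overlap each other on opposite strands. Over all 33469 promoter windows of this length, 0.852% held the NRF1 letters, 8.75% the ETS letters and 37.5% the CCAAT letters. Of the 21 translocase promoters matched, 1 held an NRF1 match, 7 an ETS match and 9 a CCAAT match. A match is a run of letters in a window and says nothing of binding.

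Over the whole table, limma called 0 of 13631 genes tested (mean of 1 FPKM or more) at a Benjamini-Hochberg adjusted p under 0.05, or 0% of genes. Of the translocase rows 20 were tested and 5 lay below the filter. Of the 19 tested rows other than Timm17b, 0 were called, with limma adjusted p-values of 0.819 to 0.992. At an unadjusted p under 0.05, Tomm7 and Timm10 lay higher in DATS tumors, beside 3.74% of all genes tested in that direction, and 5.85% of all genes in either direction. A p that misses the threshold does not show that levels were equal. The median 95% interval of a log2 difference had a half-width of 0.57.

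**Figure D2:**
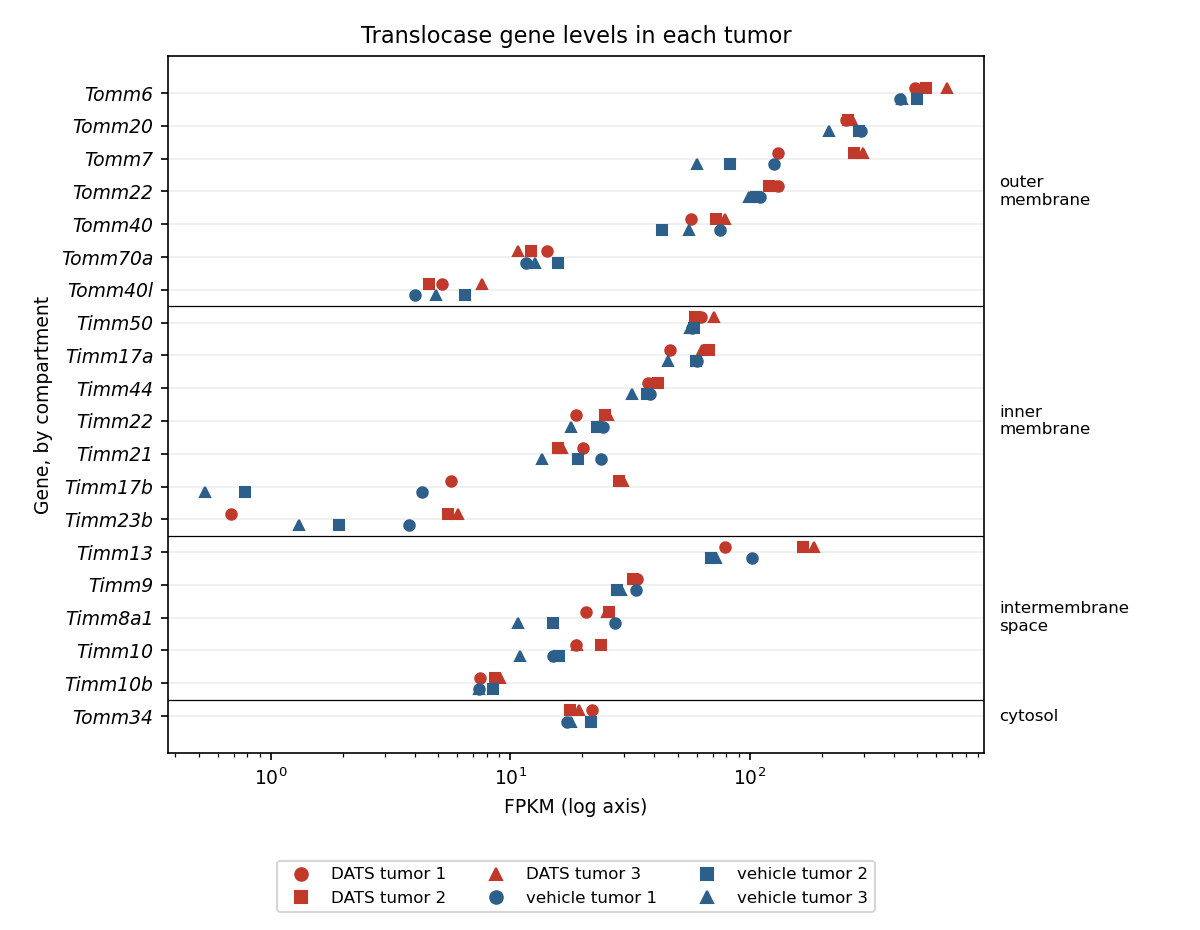
Level of each of the 20 tested translocase rows in FPKM (horizontal log axis), by compartment and within it by mean level, with 1 point per tumor: DATS tumors in red above, vehicle tumors in blue below, and the marker shape giving the tumor number. Tomm6 had the highest FPKM, at 424 to 666, and Timm17b and Timm23b spread most widely between tumors.

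By FPKM, the outer membrane rows held the most abundant genes of the family. Tomm6, a small subunit that stabilises the TOM channel, led with 489, 545 and 666 FPKM in DATS tumors and 424, 499 and 431 FPKM in vehicle tumors. The groups overlapped, since DATS tumor 1 lay below vehicle tumor 2. Its FPKM rests on an implied length of 225 bp, and by reads it had 1404 to 2084 per tumor, against 3051 to 5025 for Tomm20 (980 bp). Tomm20, the main presequence receptor, was at 253, 256 and 267 FPKM in DATS tumors, against 291, 285 and 215 FPKM in vehicle tumors, with overlapping groups and a log2 difference of -0.014 ± 0.17 (SE), the closest to 0 among the tested rows. In RefSeq, Tomm20 overlaps Rbm34 on the same strand (11.6 to 16.1 FPKM).

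Tomm7, a small subunit that regulates TOM assembly and is known for its part in keeping PINK1 at damaged mitochondria, had the next largest difference after Timm17b. Its level was 131, 274 and 296 FPKM in DATS tumors 1, 2 and 3, against 127, 82.7 and 60.1 FPKM in vehicle tumors 1, 2 and 3. The groups did not overlap, but DATS tumor 1 and vehicle tumor 1 were nearly level, as for Timm17b. The mean was 234 ± 89.4 FPKM in DATS tumors and 89.9 ± 33.9 FPKM in vehicle tumors (SD, n = 3 each), and the log2 difference was 1.35 ± 0.40 (SE; limma adjusted p = 0.819). The values rested on 691, 1390 and 1550 reads in DATS tumors and 840, 459 and 327 reads in vehicle tumors. RefSeq lists 4 pseudogenes named after Tomm7, and reads shared with them may have been divided between rows.

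Tomm22, the central receptor that joins the TOM subunits, was at 131, 121 and 128 FPKM in DATS tumors, against 110.1, 106 and 99.3 FPKM in vehicle tumors. Every DATS tumor lay above every vehicle tumor, with means of 127 ± 5.26 FPKM in DATS tumors and 105 ± 5.49 FPKM in vehicle tumors (SD, n = 3 each). The log2 difference was 0.26 ± 0.12 (SE; limma adjusted p = 0.819), and with values rescaled to equal FPKM totals it was 0.087 and the groups overlapped. That rescaling also moved the median of all genes to -0.16.

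Tomm40, the channel itself, was at 56.6, 72.6 and 78.5 FPKM in DATS tumors, against 75.0, 42.9 and 55.7 FPKM in vehicle tumors. Its paralog Tomm40l was at 5.17, 4.59 and 7.60 FPKM in DATS tumors, against 4.01, 6.46 and 4.89 FPKM in vehicle tumors. Both overlapped between the groups, and Tomm40l made up 7.71% ± 1.55 of the summed FPKM of the pair in DATS tumors and 8.75% ± 4.06 in vehicle tumors (SD, n = 3 each). The shares of this pair overlapped between the groups, and they were not tested. In RefSeq, Tomm40l overlaps Nr1i3 on the other strand (3.23 to 5.40 FPKM), and without a record of strand handling their reads cannot be told apart. Tomm70a, the receptor for carrier precursors, was at 14.3, 12.2 and 10.8 FPKM in DATS tumors, against 11.6, 15.9 and 12.7 FPKM in vehicle tumors, with overlapping groups and the lowest log2 difference of the tested rows, -0.097 ± 0.18 (SE). Tomm20l, a paralog of Tomm20, lay below the filter, at 0.168 to 0.345 FPKM in DATS tumors and 0.316 to 1.06 FPKM in vehicle tumors. It rested on 2, 2 and 1 reads in DATS tumors and on 8, 2 and 3 reads in vehicle tumors, and it overlaps both Timm9 and Arid4a (5.65 to 7.93 FPKM) in RefSeq.

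Of the inner membrane rows other than Timm17b, only Timm50 had groups that did not overlap. Timm50, the receptor of the TIM23 complex that takes over presequences from TOM, was the most abundant of them, at 62.4, 59.2 and 70.7 FPKM in DATS tumors, against 57.2, 58.3 and 56.3 FPKM in vehicle tumors. The lowest DATS tumor was 59.2 FPKM and the highest vehicle tumor 58.3 FPKM. The log2 difference of 0.15 ± 0.13 (SE; limma adjusted p = 0.861) turned to -0.021 with equal totals, beside an all-gene median of -0.16. Timm44, which tethers the import motor, Timm22, the carrier insertion channel, and Timm21, which links TIM23 to TOM and to the respiratory chain, had log2 differences of 0.15, 0.077 and -0.077, with overlapping groups. Their mean levels over the 6 tumors were 37.9, 22.4 and 18.2 FPKM. With equal totals the log2 differences of Timm44 and Timm22 turned to -0.021 and -0.094, beside the same all-gene median of -0.16.

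Timm23b had the lowest level of the tested rows. Its level was 0.681, 5.53 and 6.05 FPKM in DATS tumors 1, 2 and 3, against 3.78, 1.94 and 1.32 FPKM in vehicle tumors 1, 2 and 3. DATS tumors 2 and 3 were highest, as for Timm17b, but DATS tumor 1 was the lowest of the 6, so the groups overlapped. RefSeq (GRCr8) lists Timm23b as a pseudogene and 9 pseudogenes named after Timm23, so this row is no measure of the Tim23 channel. It was placed with the inner membrane by its name, after the table had been seen. Timm23 itself, Timm29 and Tomm5 were not analysed here.

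The intermembrane space chaperones all had positive log2 differences in the 5 rows tested. Timm10, which forms the main carrier chaperone with Timm9, was at 18.8, 23.9 and 19.1 FPKM in DATS tumors, against 15.2, 16.0 and 10.99 FPKM in vehicle tumors. Every DATS tumor lay above every vehicle tumor, on the deposited values as with equal totals and quantile normalization. The mean was 20.6 ± 2.86 FPKM in DATS tumors and 14.04 ± 2.67 FPKM in vehicle tumors (SD, n = 3 each), a log2 difference of 0.53 ± 0.19 (SE; limma adjusted p = 0.819). Its partner Timm9 was at 34.0, 32.6 and 33.0 FPKM in DATS tumors, against 33.6, 27.8 and 29.0 FPKM in vehicle tumors, a log2 difference of 0.14 ± 0.13 (SE) that turned to -0.033 with equal totals. The all-gene median with equal totals was -0.16. The groups of Timm9 overlapped, since vehicle tumor 1 lay within the range of the DATS tumors. In RefSeq, Timm9 overlaps Tomm20l on the other strand.

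Timm13 was the most abundant gene of this compartment. Its level was 79.0, 166 and 185 FPKM in DATS tumors 1, 2 and 3, against 102, 68.6 and 72.6 FPKM in vehicle tumors 1, 2 and 3. As for Timm17b and Tomm7, DATS tumors 2 and 3 stood apart, but DATS tumor 1 lay below vehicle tumor 1, and the log2 difference was 0.74 ± 0.35 (SE; limma adjusted p = 0.819). It was 1.13 without DATS tumor 1 and 0.52 without DATS tumor 3. Timm8a1, the partner of Timm13 and the rat counterpart of the gene mutated in human deafness-dystonia syndrome, was at 20.8, 25.7 and 25.3 FPKM in DATS tumors, against 27.3, 15.1 and 10.8 FPKM in vehicle tumors. It was highest in vehicle tumor 1, the tumor with 1313 FPKM of skeletal muscle markers, as were Tomm20 and Timm21; the part of muscle in these values was not tested. Without that tumor the log2 difference of Timm8a1 was 0.85 against 0.50 with all 6, and those of Tomm20 and Timm21 turned to 0.064 and 0.10. Without vehicle tumor 3 that of Timm8a1 was 0.22.

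Timm10b, a small Tim bound to the TIM22 complex, was at 7.48, 8.64 and 9.03 FPKM in DATS tumors, against 7.38, 8.46 and 7.38 FPKM in vehicle tumors, with overlapping groups. Timm8a1 and Timm10b each had another row in the table, ENSRNOG00000043480 and ENSRNOG00000000320 beside the tested rows ENSRNOG00000011226 and ENSRNOG00000050846. The further row of Timm8a1 had 0, 1 and 0 reads in DATS tumors and 3, 1 and 0 reads in vehicle tumors, and that of Timm10b had 1, 0 and 0 reads in DATS tumors and 1, 0 and 0 reads in vehicle tumors. Both lay below the filter, as did Timm8a2 and Timm8b, which encode relatives of Timm8a1. Timm8a2 had 3, 0 and 1 reads in DATS tumors and 0, 8 and 3 reads in vehicle tumors. The row named Timm8b had 0, 4 and 1 reads in DATS tumors and 1, 0 and 0 reads in vehicle tumors. Timm8b is known as a widely expressed gene, and which transcripts this row counts was not checked, so its reads are not given as the level of the gene. With at most 8 reads in any tumor, nothing is read from these rows about a difference between the groups. Tomm34, a cytosolic co-chaperone of Hsp70 and Hsp90 that is not a subunit of the TOM complex, was at 21.9, 17.7 and 19.3 FPKM in DATS tumors, against 17.2, 21.8 and 17.9 FPKM in vehicle tumors, with overlapping groups. In RefSeq, Tomm34 overlaps Stk4 (10.7 to 20.8 FPKM).

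**Figure D3:**
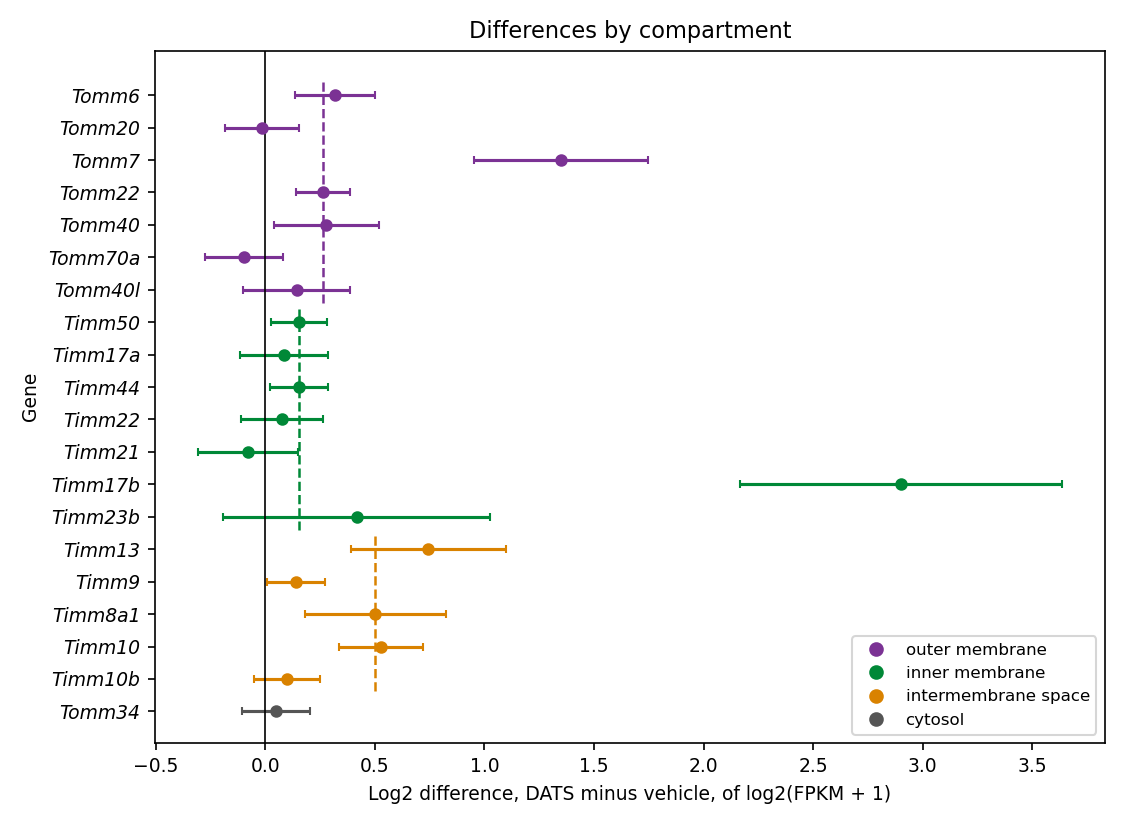
Log2 difference, DATS minus vehicle, of log2(FPKM + 1) for the 20 tested rows (horizontal axis), with bars of 1 SE from limma and colours for the compartments; dashed lines are the medians of 0.26, 0.15 and 0.50 in the outer membrane, inner membrane and intermembrane space. Timm17b at 2.90 and Tomm7 at 1.35 lie outside the range of the other rows, which is -0.097 to 0.74.

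Set side by side, the outer membrane had a median log2 difference of 0.26 over 7 tested rows, with 5 positive and 2 negative. The inner membrane had 0.15 over 7 rows, with 6 positive and 1 negative, and 0.12 over the 6 rows without Timm17b. Both inner membrane medians count the pseudogene row Timm23b, at 0.42, which is no measure of the Tim23 channel. The intermembrane space had 0.50 over 5 rows, all positive, and all genes tested had a median of -0.0048 with 49.2% positive. Of the 19 rows without Timm17b, 16 were positive, but after rescaling to equal totals 8 were, beside a median over all genes of -0.16, and the medians were 0.087 for the outer membrane, -0.021 for the inner membrane and 0.33 for the intermembrane space. The inner membrane median was 0.053 without DATS tumor 3 and 0.078 without vehicle tumor 3. That of the intermembrane space was 0.22 without vehicle tumor 3 and 0.14 over all 9 rows without the filter. These are descriptions, and the compartments were not tested against each other.

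Tumors of 1 group also differed among themselves in each compartment. The median deviation of the outer membrane rows from their 6-tumor mean was -0.039, 0.065 and 0.33 in DATS tumors 1, 2 and 3 and -0.12, -0.011 and -0.21 in vehicle tumors 1, 2 and 3, on the log2 scale. That of the inner membrane rows was -0.0026, 0.16 and 0.19 in DATS tumors and 0.095, -0.022 and -0.31 in vehicle tumors. In both membranes the groups overlapped, with DATS tumor 1 below a vehicle tumor and vehicle tumor 3 the lowest of the 6. Of the 3 compartments, the intermembrane space had medians that separated on the deposited values, with 0.061, 0.36 and 0.17 in DATS tumors and -0.020, -0.18 and -0.51 in vehicle tumors. DATS tumor 1 and vehicle tumor 1 lay close together, and only 1 of the 5 rows, Timm10, separated on its own. With equal totals the intermembrane space median of DATS tumor 1 lay below that of vehicle tumor 1, so these medians no longer separated. Compared at the level of FPKM per gene, the median over the 6 tumors was 116 FPKM for outer membrane rows, 22.4 FPKM for inner membrane rows and 20.8 FPKM for intermembrane space rows. Without Timm17b that of the inner membrane was 30.2 FPKM. Both inner membrane levels count the pseudogene row Timm23b, the lowest of the tested rows.

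**Figure D4:**
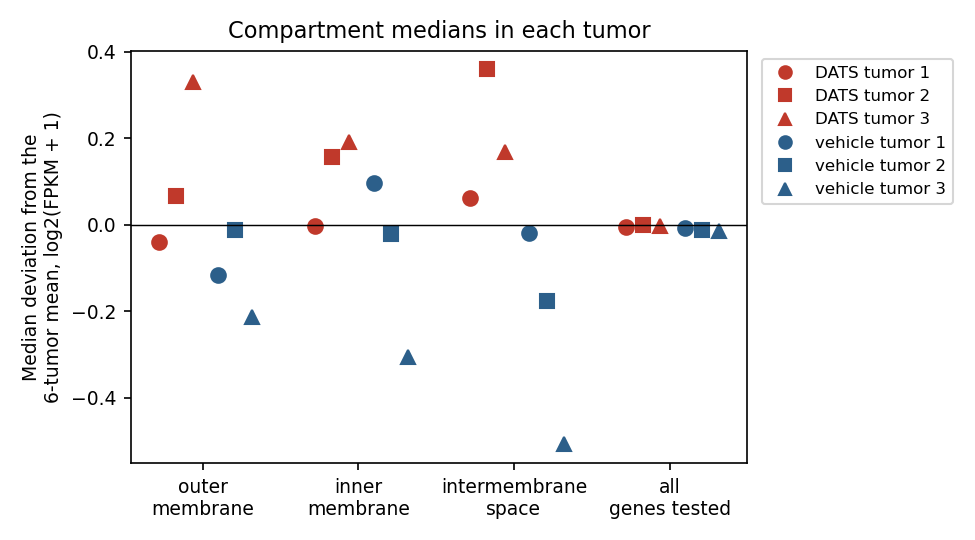
Median deviation of the tested rows of each compartment from their own 6-tumor mean, in log2(FPKM + 1) (vertical axis), for each DATS tumor (red) and vehicle tumor (blue), beside the same median over all 13631 genes tested. The all-gene medians lie within 0.02 of 0, while the compartment medians run from -0.51 in vehicle tumor 3 to 0.36 in DATS tumor 2.

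For 4 of the 19 tested rows other than Timm17b the groups did not overlap, all of them higher in DATS tumors: Tomm7, Timm10, Tomm22 and Timm50. Over all genes tested, 6.72% were separated in this direction. With quantile normalization Tomm7 and Timm10 remained separated, beside 5.61% of all genes, and with equal totals Timm10 did, beside 1.5%. Timm17b was separated under each scaling but is not counted, since the family was selected on it. A further pattern was picked after its values were seen. In 10 of the 20 rows, DATS tumors 2 and 3 were the 2 highest of the 6, against 11.3% of all genes tested. Timm17b, on which the family was selected, is among the 10 and among the inner membrane rows below, and nothing is read from its share. These were 5 of 7 inner membrane rows (Timm17a, Timm17b, Timm22, Timm23b and Timm44), 3 of 5 intermembrane space rows (Timm10, Timm10b and Timm13) and 2 of 7 outer membrane rows (Tomm6 and Tomm7).

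Over all genes tested, gene length moved with this pattern. DATS tumors 2 and 3 were the 2 highest for 18.9% of genes under 500 bp, 21.4% of those of 500 to 1000 bp, 13.9% of those of 1000 to 2000 bp, 7.47% of those of 2000 to 6000 bp and 2.64% of longer genes. Lengths were those implied by the FPKM values, with a median of 2141 bp over all genes tested. Of the 10 translocase rows with the pattern, 6 were under 1000 bp, namely Tomm6 (225 bp), Tomm7 (376 bp), Timm17b (519 bp), Timm23b (630 bp), Timm13 (805 bp) and Timm17a (904 bp). The other 4 were Timm10 (1056 bp), Timm10b (1338 bp), Timm44 (1783 bp) and Timm22 (1801 bp). Slopes per doubling of gene length were taken on the deviations of log2 values from each gene's 6-tumor mean, with the shortest genes left out. They were 0.013, -0.041 and -0.064 in DATS tumors 1, 2 and 3 and 0.0024, 0.0084 and 0.081 in vehicle tumors 1, 2 and 3. The 8 translocase rows under 1000 bp other than Timm17b had a median log2 difference of 0.37, against 0.12 for all 2329 genes of that length, and the 11 rows of 1000 bp or more had 0.14, against -0.017 for all genes of that length. With the length trend removed from each tumor, the log2 differences were 2.77 for Timm17b, 1.24 for Tomm7, 0.63 for Timm13 and 0.44 for Timm10, so they were smaller but stayed positive. The compartment medians were then 0.17 for the outer membrane, 0.077 for the inner membrane and 0.38 for the intermembrane space. The part of gene length in these values was not tested.

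**Figure D5:**
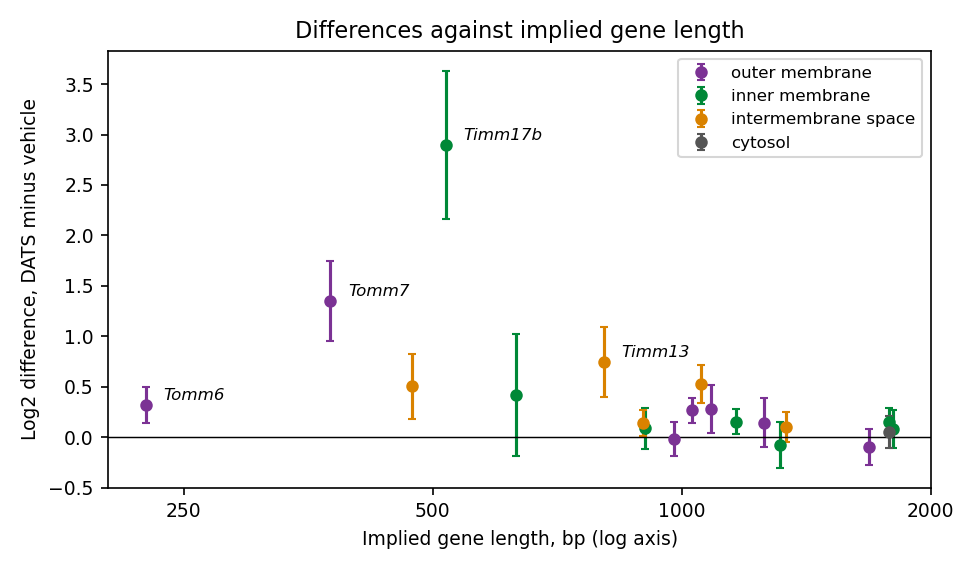
Log2 difference, DATS minus vehicle, with bars of 1 SE (vertical axis) against the implied gene length in bp (horizontal log axis) for the 20 tested translocase rows, coloured by compartment. The 2 rows past 1 on the log2 scale, Timm17b and Tomm7, are 519 and 376 bp long, while the rows of 1000 bp or more lie between -0.097 and 0.53.

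Other genes of mitochondrial import were described as a list, which held the import motor, the SAM complex that inserts outer membrane barrels, the Chchd4-Gfer oxidative folding relay, presequence peptidases, insertases, the MICOS complex and matrix chaperones. Of 33 tested rows 0 were called (0% of all genes), 21 had positive and 12 negative log2 differences, and the median was 0.075. With equal totals 10 were positive and the list median was -0.086, beside -0.16 over all genes tested. Without vehicle tumor 3 the list median was -0.030, beside -0.0067 over all genes. Without vehicle tumor 1 it was 0.17, beside 0.0029. On the deposited values the groups did not overlap for 3 rows that were higher in DATS tumors and 2 that were lower, beside 6.72% and 5.5% of all genes tested.

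Dnajc19, a J-protein of the TIM23 motor, averaged 17.8 ± 2.28 FPKM in DATS tumors and 12.5 ± 1.86 FPKM in vehicle tumors (SD, n = 3 each), a log2 difference of 0.48 ± 0.17 (SE; limma adjusted p = 0.819). Oxa1l, an insertase for proteins made in the matrix, averaged 73.2 ± 4.28 FPKM in DATS tumors and 58.6 ± 5.07 FPKM in vehicle tumors, a log2 difference of 0.32. Gfer, the sulfhydryl oxidase that recharges Chchd4, averaged 26.8 ± 2.62 FPKM in DATS tumors and 21.0 ± 2.86 FPKM in vehicle tumors. In these 3 genes each DATS tumor lay above each vehicle tumor on the deposited values. After rescaling to equal FPKM totals the groups overlapped in each of them. Chchd4, the oxidoreductase that folds small Tim proteins, was lower in DATS tumors on 1 of its 2 rows. That row had 8.31 ± 1.15 FPKM in DATS tumors and 10.6 ± 1.12 FPKM in vehicle tumors, whereas the other had a log2 difference of 0.057. Cox18, an insertase for cytochrome c oxidase, averaged 12.8 ± 0.434 FPKM in DATS tumors and 13.8 ± 0.467 FPKM in vehicle tumors. By subgroup, the median log2 difference was 0.26 for the motor (5 of 6 rows positive), 0.25 for the SAM complex (3 of 3) and -0.032 for MICOS (2 of 6). The motor held both extremes of the list. Hspa9, which encodes mtHsp70, had -0.41 ± 0.18 and Grpel1 0.50 ± 0.21 (SE; limma adjusted p = 0.819 each), both with overlapping groups. For the other subgroups the median is given likewise. It was 0.16 for insertases (2 of 4) and 0.072 for matrix chaperones (2 of 3). Presequence peptidases had 0.071 (4 of 6) and the oxidative folding relay 0.047 (3 of 4). Agk, a TIM22 partner also in the list, had -0.070. These subgroup values are as deposited, without rescaling to equal totals.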

How the data were processed

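Expression values are in FPKM, per the file headers, as deposited by the authors, 1 per gene and tumor. For aligner, counting tool, strand handling, build and annotation, the sources used here name none. Groups came from the treatment label. Because each FPKM value is a multiple of what 1 read adds, whole reads (tolerance 1e-06) and gene lengths were recovered for 100.0% of 20891 rows above 0; 763 rows were multiplied by a common divisor. The relative values of 1 read matched median-of-ratios size factors. Rows with a mean of at least 1 FPKM were tested on log2(FPKM + 1) with limma 3.58.1 in R 4.3.3 (lmFit, eBayes with trend, group only, two-sided, Benjamini-Hochberg over 13631 genes, called under 0.05). The fit was tested on simulated data. By rule, per-tumor values were given for Timm17b, for rows with an unadjusted p under 0.05 or no overlap, for paralogs and duplicate symbols, for the extremes of each compartment and for the RefSeq neighbours of Timm17b. Timm23b was placed with the inner membrane after the table was seen. Of the other import genes, those with an unadjusted p under 0.05 or no overlap were named, as were Agk and the extremes of the list, Hspa9 and Grpel1. A further list of comparison genes is not reported here. The members and lists were chosen with earlier results of these data known. Alternatives were another pseudocount, filters, scalings, length trend removal, limma-voom on recovered reads, array weights, a replicate block and each tumor left out. All 23 symbols matched RefSeq (GRCr8), Tomm70a as Tomm70, and 21 matched promoter windows. Python 3.11.15, pandas 2.3.3 and matplotlib 3.10.9 made the tables and plots.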

Additional observations from a re-analysis of the deposited data

How the results depend on the processing

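No gene was called under any of the 15 alternatives, by limma on FPKM or by limma-voom on the recovered reads, and no translocase row was. The lowest adjusted p of a translocase row other than Timm17b was 0.337, with array weights. At an unadjusted p under 0.05, 797 genes passed as deposited (510 higher and 287 lower in DATS tumors), 1033 with equal totals (128 higher and 905 lower), 704 with limma-voom, 1663 with array weights, and 428 without DATS tumor 2 to 1221 without DATS tumor 1. Leaving out 1 tumor gave compartment medians of 0.18 to 0.28 for the outer membrane, 0.053 to 0.21 for the inner membrane and 0.22 to 0.59 for the intermembrane space. The log2 difference of Timm17b stayed between 2.52 and 3.65, and those of Tomm7, Timm10, Timm13, Timm8a1, Tomm6, Tomm22, Tomm40 and Timm23b stayed positive under each alternative that gave them a value, though leaving out 1 tumor gave 0.52 to 1.13 for Timm13, 0.22 to 0.85 for Timm8a1, 0.084 to 0.48 for Tomm40 and 0.053 to 1.09 for Timm23b. With equal FPKM totals the difference turned to -0.12 for Tomm34, -0.021 for Timm50, -0.089 for Timm17a, -0.021 for Timm44, -0.094 for Timm22, -0.033 for Timm9, -0.057 for Timm10b and -0.0048 for Tomm40l; the rescaling itself moved the median of all genes to -0.16. Timm17a also turned to -0.012 with quantile normalization and to -0.018 with the length trend removed, and array weights gave -0.027 for Tomm34 and 0.024 for Tomm20. Leaving out 1 tumor gave differences that changed sign within ranges of -0.028 to 0.15 for Tomm34, -0.15 to 0.064 for Tomm20, -0.044 to 0.25 for Timm17a, -0.040 to 0.30 for Tomm40l, -0.29 to 0.10 for Timm21, -0.19 to 0.024 for Tomm70a and -0.051 to 0.21 for Timm22. The cause of these turns was not tested. With the replicate block 0 genes were called (594 at an unadjusted p under 0.05) and every log2 difference was as without it, since the design is balanced; same-numbered tumors, whose deviations correlated at 0.15, -0.023 and -0.12, share only a number. Timm23b fell below the stricter filter of 5 FPKM and has no value there. Depth limits Timm17b in vehicle tumors 2 and 3, at 6 and 4 reads, and the rows below the filter.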
